A study of Mus musculus with 2 samples.

Results

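The 8 genes described here take up or handle lipid in the endothelium: Fabp4, Fabp5, Rbp7, Cd36, Lpl, Gpihbp1, Scarb1 and Aqp7. They were found by symbol among the 32285 genes of the count tables, and each matched 1 row. They were chosen by their known roles and partly selected on these libraries, since an earlier analysis had found Fabp4 and Rbp7 among the genes most reduced, and Scarb1 among those higher, in general capillary cells after melanoma cells arrived. Those ratios are therefore given as descriptions. The study asked how the lung endothelium changes when melanoma cells first lodge in it. Lungs of C57BL/6 mice, which the study's methods give as young adult males, were taken 6 h after an injection into the tail vein, either of PBS (control) or of 400000 cells of B16-F10, a mouse skin melanoma line stained with a green tracker dye, in 100 µl. Per the labels 2 mice were used per treatment. The digested lungs were sorted for cells that carry Pecam1, found on ECs (endothelial cells), and lack Ptprc, found on leukocytes, and dyed melanoma cells were collected with them. The cells of each treatment were pooled into 1 library, so the 2 libraries have no replicate, every difference below compares these libraries, and all intervals cover counting error only.

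Capillaries are where most lipid leaves the blood. Lipoprotein lipase (Lpl) is carried to the vessel lumen by its anchor Gpihbp1 and releases fatty acids from triglyceride-rich lipoproteins. The fatty acid receptor Cd36 and the HDL receptor Scarb1 take lipid into the EC, the fatty acid binding proteins Fabp4 and Fabp5 carry fatty acids inside it, Rbp7 is an intracellular retinol binding protein, and Aqp7 is a channel for glycerol. Lung capillaries hold general capillary cells (gCap), which are the common type, and the large, thin aerocytes (aCap), which line the gas exchange surface.

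All 8 genes are protein-coding, and positions are given on GRCm38. Fabp5 (ENSMUSG00000027533, chromosome 3, 10012548 to 10016607, plus strand) and Fabp4 (ENSMUSG00000062515, chromosome 3, 10204088 to 10208576, minus strand) lie 187480 bases apart. Aqp7 (ENSMUSG00000028427, 41033074 to 41048139, minus strand) and Rbp7 (ENSMUSG00000028996, 149449687 to 149454978, minus strand) are on chromosome 4. Cd36 (ENSMUSG00000002944, 17781690 to 17888801, minus strand) and Scarb1 (ENSMUSG00000037936, 125277087 to 125341094, minus strand) are on chromosome 5. Lpl (ENSMUSG00000015568, 68880491 to 68907448, plus strand) is on chromosome 8 and Gpihbp1 (ENSMUSG00000022579, 75596628 to 75599481, plus strand) on chromosome 15. The annotation lists a gene overlapping Scarb1 on the same strand, Gm42633, which is not among the genes counted.

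RefSeq promoter sequences (GRCm38.p6) were matched for 3 of the 8 genes, Aqp7, Rbp7 and Cd36. Those of Rbp7 and Aqp7 are shown because both transcripts were nearly confined to the same small set of cells. Each line gives the 250 bases before a start site, 5′ to 3′ on the minus strand of chromosome 4, and for Aqp7 this is the upstream one of 2 starts. Capitals mark the motif AGGTCA read on either strand, the half-site of nuclear receptors such as PPARG.
Rbp7, chr4:149454969-149455218: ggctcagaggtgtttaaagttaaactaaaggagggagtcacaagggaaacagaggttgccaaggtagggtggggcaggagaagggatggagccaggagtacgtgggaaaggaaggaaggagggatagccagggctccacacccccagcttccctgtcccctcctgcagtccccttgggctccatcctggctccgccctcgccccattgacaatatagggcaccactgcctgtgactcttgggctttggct
Aqp7, chr4:41048137-41048386: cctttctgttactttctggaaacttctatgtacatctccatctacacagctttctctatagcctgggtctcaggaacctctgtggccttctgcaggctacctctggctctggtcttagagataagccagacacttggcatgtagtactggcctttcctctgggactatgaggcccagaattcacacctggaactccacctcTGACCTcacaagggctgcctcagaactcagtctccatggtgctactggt
The Aqp7 window held 1 match, on the opposite strand, and the Rbp7 window held 0. Of the windows not shown, that of the other Aqp7 start, which overlaps the first, held 2 matches and that of Cd36 held 1. Of 32851 promoter windows of this length, 14% held the motif. A match in these letters is a description and does not show that a receptor binds there.

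The control library held 85794655 unique molecular identifiers (UMIs, each marking 1 captured RNA molecule) and the B16-F10 library 104978816. After filtering, 7830 and 7767 cells remained, with medians of 7510 and 8557 UMIs per cell. Cells were clustered without the 8 genes and the other lipid genes described below. ECs numbered 7119 in the control and 6353 in the B16-F10 library, and all 8 endothelial markers were present in each vessel class of both. The classes were gCap-like (4915 and 4517 cells), aCap-like (1446 and 969), artery-like (216 and 160), vein-like (297 and 284) and lymphatic (LEC-like, 58 and 51). Cell barcodes shared by the libraries numbered 18, or 0.230% and 0.232% of their cells. Levels are counts per 1000000 UMIs of the class (CPM), with exact Poisson 95% intervals in brackets, and ratios are the log2 of the B16-F10 level divided by the control level.

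Fabp4, Rbp7 and Aqp7 were found mainly in one small endothelial cluster, not in the capillary classes. Cluster 15 held 176 control and 31 B16-F10 cells. In the control library it made up 2.25% of the cells kept and carried 89.5% of the Fabp4 UMIs, 92.5% of the Rbp7 UMIs and 94.7% of the Aqp7 UMIs. In the B16-F10 library it made up 0.399% of cells and carried 80.9%, 81.25% and 93.9%. Fabp5 was divided, with 49.4% of its control UMIs and 15.7% of its B16-F10 UMIs in cluster 15. Cd36, Lpl, Gpihbp1 and Scarb1 lay mainly in gCap-like ECs, which carried 64.2% to 85.7% of their UMIs in the control library and 68.2% to 85.0% in the B16-F10 library.

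**Figure D1:**
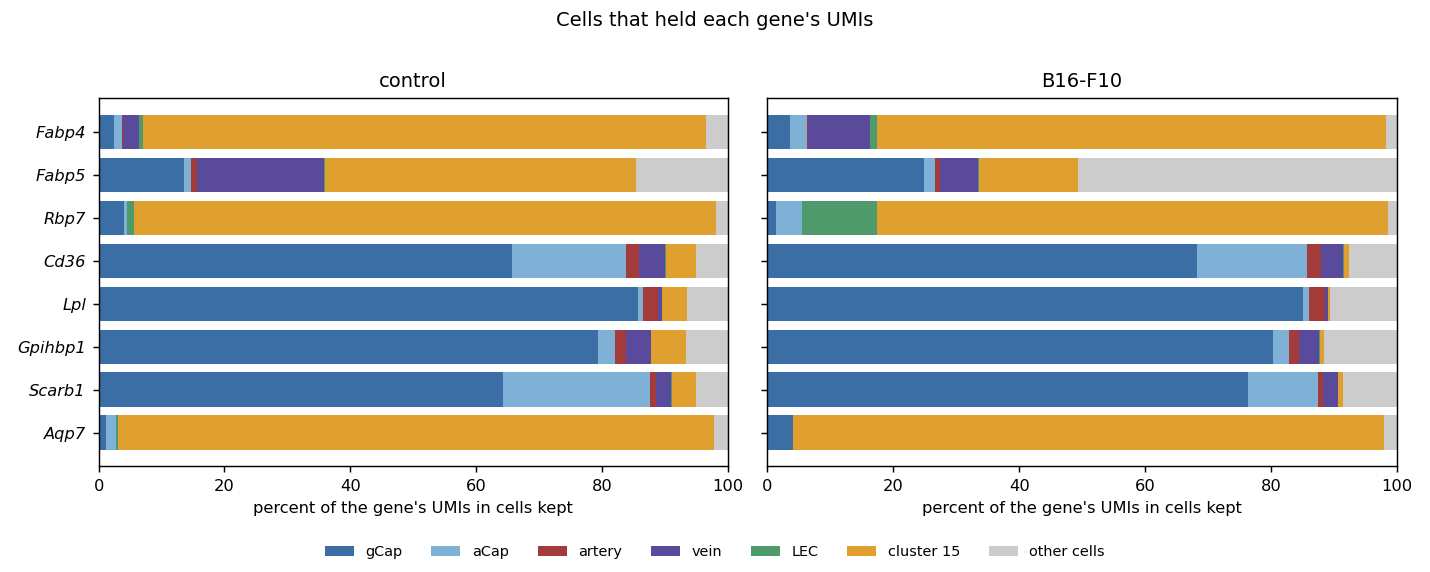
Share of each gene's UMIs, in percent of all cells kept, that lay in each EC class and in other cells, for the control (left) and the B16-F10 library (right). Cluster 15 holds 89.5%, 92.5% and 94.7% of the control UMIs of Fabp4, Rbp7 and Aqp7, while gCap-like ECs hold most of Cd36, Lpl, Gpihbp1 and Scarb1.

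Cluster 15 was endothelial but met the marker rule of no vessel class, so it is called by its number. Its genes of highest fold over the other clusters were Gm29007, Tmem182, Gm12002, Aqp7, Kcna5, Fabp4, Car3, Rbp7, Tcf15 and Gm44079, of which Aqp7, Fabp4, Rbp7 and Tcf15 had no part in forming it. The endothelial marker list summed to 7895 CPM in its control cells and 7577 CPM in gCap-like ECs, whereas the gCap marker list summed to 1637 and 6097 CPM. The gCap markers Kit, a receptor tyrosine kinase, and Plvap, a protein of fenestral and caveolar diaphragms, had 38.6 and 139 CPM in its control cells and 881 and 1254 CPM in gCap-like ECs. The B16-F10 cells of cluster 15 held more of them, with 138 CPM of Kit, 868 CPM of Plvap and 3280 CPM of the gCap list, against 999.7, 1454 and 5762 CPM in gCap-like ECs. The marker lists of aCap, artery and vein summed to 1580, 1325 and 407 CPM in its control cells, against 7070, 6462 and 9416 CPM in their own classes.

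Transcription factors known to drive fatty acid uptake genes in heart endothelium were abundant in the same cluster. Meox2 had 367 CPM in control cells of cluster 15 and 0.325 CPM in gCap-like ECs of that library. Its partner Tcf15 had 438 and 1.41 CPM. Pparg, the nuclear receptor that drives many lipid uptake and storage genes, had 742 and 0.379 CPM. Its B16-F10 cells held 189 CPM of Meox2, 312 of Tcf15 and 342 of Pparg, against 0.228, 1.90 and 0.379 in gCap-like ECs. These values are given as a description, since the contrast of a cluster with other cells is no test.

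Other cells' markers moved with cluster 15, and their part in its levels was not tested. Of 8 adipocyte markers, 7 were above 0 in its control cells and summed to 258 CPM, against 1.599 CPM in gCap-like ECs. Most of that sum came from Car3 (124 UMIs, in 10.8% of the cells) and Cfd (87 UMIs, in 9.09%), while Adipoq had 7 UMIs, Plin1 had 5 and Lep had 0. Of the 6 cardiomyocyte markers, all were above 0, with a sum of 57.9 CPM, of which Nppa had 33 UMIs and Myh6 had 4. Erythroid genes summed to 8183 CPM in its control cells and 1456 CPM in its B16-F10 cells. In gCap-like ECs the erythroid sums were 991 and 1182 CPM.

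Cluster 15 was smaller in the B16-F10 library. It made up 2.47% of ECs in the control library (95% Clopper-Pearson interval 2.12 to 2.86) and 0.488% in the B16-F10 library (0.332 to 0.692). It formed again under each of 3 other clusterings, with 172 to 198 control and 30 to 46 B16-F10 cells. With 1 library per group, a cluster drawn mostly from 1 library cannot be told apart from a feature of that library's dissection or sort.

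Fabp4, which binds fatty acids in adipocytes and in capillary ECs of heart and fat, was unevenly spread across cells, with 74.6% of its control UMIs in the 1% of cells that held most, as were Rbp7 (91.7%) and Aqp7 (86.1%). In the control library it had 35816 CPM in cluster 15 (35444 to 36192), 418 in LEC-like (362 to 480), 329 in vein-like (309 to 349), 37.1 in aCap-like (33.9 to 40.5), 27.3 in artery-like (20.01 to 36.5) and 26.9 in gCap-like ECs (25.3 to 28.6). The intervals of artery-like and gCap-like ECs overlapped. In the B16-F10 library the order was 26524 CPM in cluster 15 (25807 to 27255), 199 in vein-like (183 to 215), 137 in LEC-like (106 to 174), 16.1 in aCap-like (13.8 to 18.7), 5.87 in gCap-like (5.14 to 6.67) and 5.28 in artery-like ECs (2.28 to 10.4). Every one of these classes was lower in the B16-F10 library.

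The size of the Fabp4 difference depended on the cells summed. The log2 ratio was -2.65 over all ECs (-2.69 to -2.62), where Fabp4 had 675 and 107 CPM, and -1.35 over all ECs without cluster 15 (-1.45 to -1.25), a sum chosen after seeing the data. Within cluster 15 it was -0.43 (-0.48 to -0.39). In gCap-like ECs it was -2.20 (-2.41 to -1.99), in aCap-like -1.21 (-1.46 to -0.95), in artery-like -2.37 (-3.67 to -1.27), in vein-like -0.73 (-0.87 to -0.58) and in LEC-like ECs -1.61 (-2.03 to -1.20). Of these classes, cluster 15 had the ratio closest to 0, but that ratio rests partly on 1 cell. This B16-F10 cell held 996 of the 5192 Fabp4 UMIs, while the top control cell held 985 of 35286. Medians per cell of cluster 15 lay further apart than the sums, with 43 Fabp4 UMIs for B16-F10 cells against 157.5 for control cells. Those B16-F10 cells were the deeper ones, with a median of 6573 total UMIs against 5194. Single cells also weighed on the aCap-like sums, where 1 cell held 225 of 486 control UMIs and 1 cell 122 of 175 B16-F10 UMIs. The aCap-like clusters differed. In cluster 1 the log2 ratio was -0.20 (-0.52 to 0.11), which is within counting error. In cluster 9 it was -2.20 (-3.53 to -1.14), with 306 UMIs in 551 control cells and 7 UMIs in 69 B16-F10 cells. The part of these unequal cell numbers in the aCap-like ratio was not tested.

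**Figure D2:**
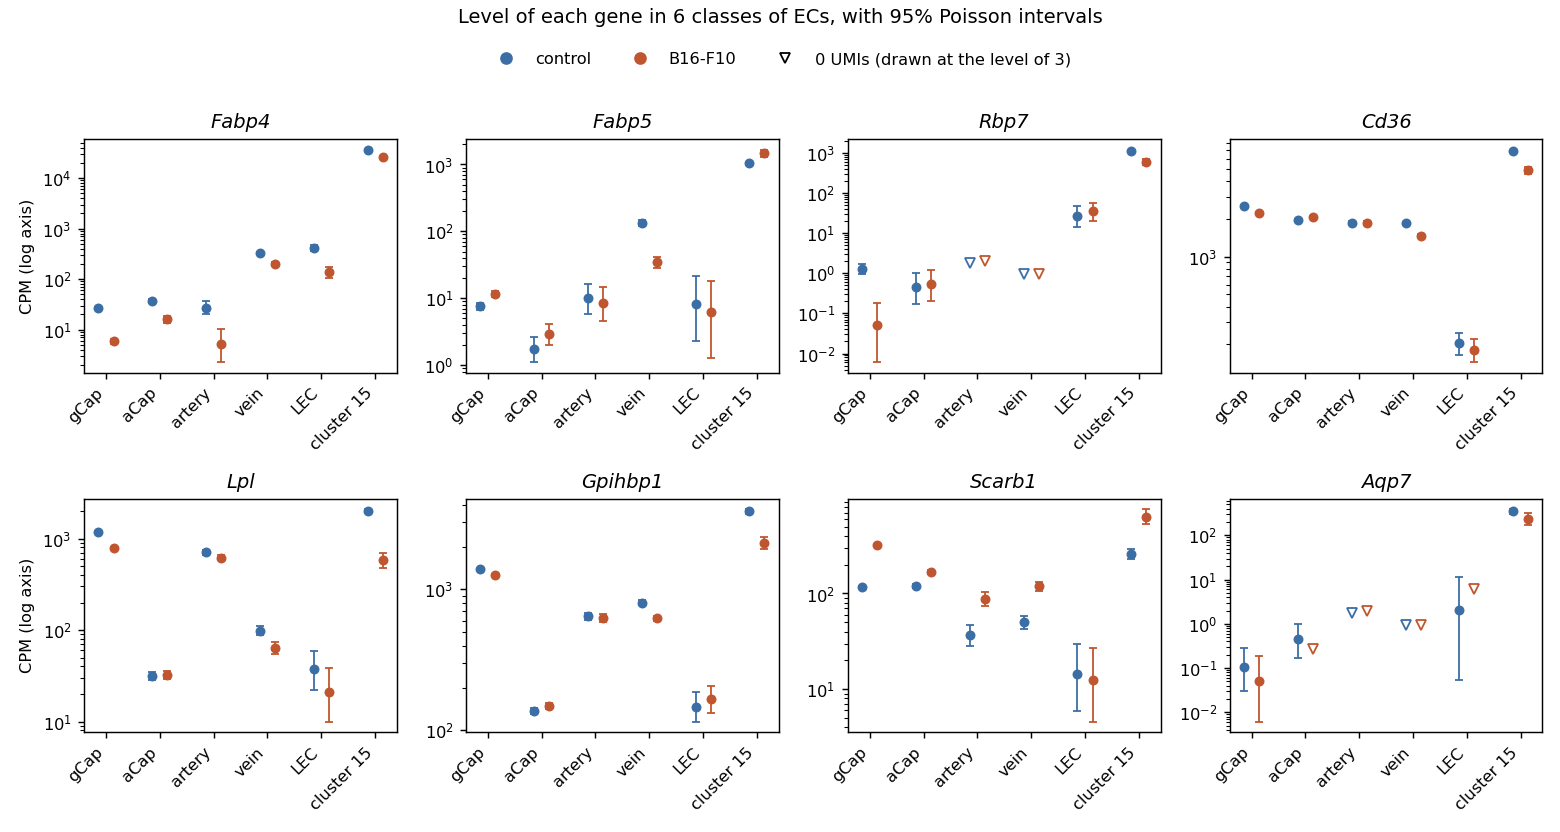
Level of each of the 8 genes in CPM (log axis) in 5 vessel classes and cluster 15, with control in blue and B16-F10 in orange; bars are 95% Poisson intervals and open triangles mark 0 UMIs, drawn at the level of 3. Fabp4, Rbp7 and Aqp7 peak in cluster 15, Lpl is low in aCap-like ECs, and Scarb1 is higher in the B16-F10 library in 4 vessel classes and cluster 15.

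Free RNA held much Fabp4. Barcodes with 1 to 100 UMIs, which hold RNA outside cells, had 1413 CPM of Fabp4 in the control library (1382 to 1444) and 166 CPM in the B16-F10 library (153 to 180), a log2 ratio of -3.09 (-3.21 to -2.97). In barcodes with 1 to 50 UMIs alone it had 829 and 131 CPM. Of the 6 cardiomyocyte markers, 3 were higher in free RNA of the control library and 3 lower. Ttn had 61.9 CPM in control and 4.66 in B16-F10, Nppa 18.7 and 0.874, and Myh6 20.5 and 7.28. Myl4 had 23.8 and 39.6 CPM, Tnnt2 12.2 and 16.02, and Actc1 8.82 and 13.98. From 13 genes that ECs should lack, among them haemoglobins and surfactant proteins, free RNA was estimated at 2.01% of UMIs in control and 3.11% in B16-F10 gCap-like ECs. That share would supply 28.4 CPM of Fabp4 in control and 5.17 CPM in B16-F10 gCap-like ECs. The measured levels of 26.9 and 5.87 CPM were 0.947 and 1.14 times this supply. When haemoglobins were left out, a choice made after seeing the data, the shares were 1.495% and 2.17% and the levels were 1.27 and 1.62 times the supply. Fabp4 in gCap-like ECs was thus near the free RNA level in both libraries, and its difference there cannot be told apart from that of free RNA. In control aCap-like ECs the level of 37.1 CPM was under the supply of 43.2 CPM, or above one of 17.0 CPM without haemoglobins, while in B16-F10 cells the supply was 3.94 CPM. Artery-like ECs had 1.46 times the supply in control and 1.37 times in B16-F10, or 1.29 and 1.47 times without haemoglobins. Their Fabp4 difference cannot be told apart from that of free RNA either.

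**Figure D3:**
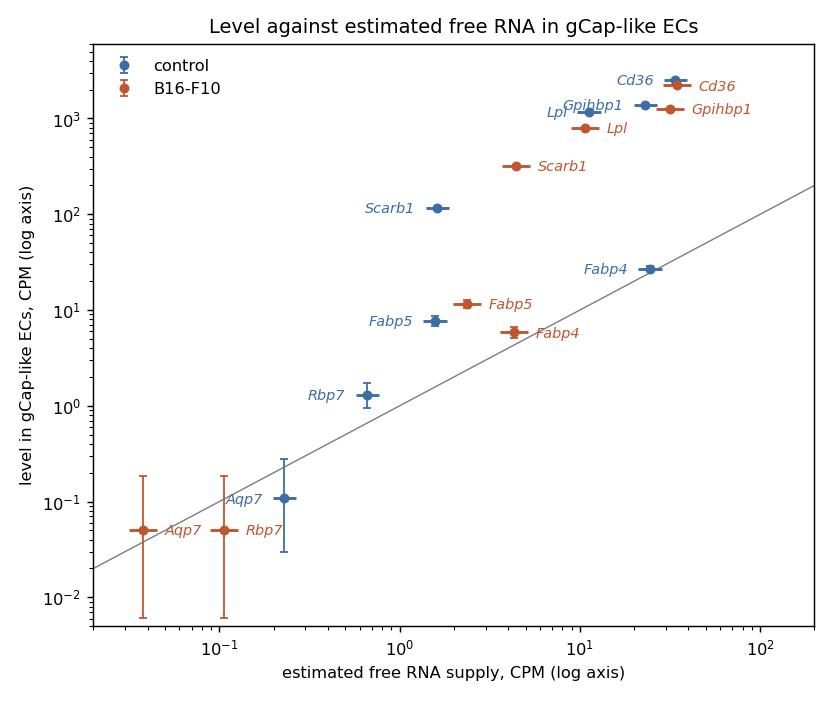
Level of each gene in gCap-like ECs against the level that free RNA would supply, both in CPM on log axes; horizontal bars span the estimates with and without haemoglobins, vertical bars are 95% Poisson intervals, and the line marks equality. Cd36, Lpl, Gpihbp1 and Scarb1 lie far above the line and Fabp5 above it, while Fabp4 lies near it and Rbp7 lies above it in the control and below it in the B16-F10 library.

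Vein-like ECs held Fabp4 above the free RNA supply, which was 14.1 CPM in control and 11.7 CPM in B16-F10 cells. The gene was carried by a minority of these cells. Thinned to 2000 UMIs per cell, 20.9% of control vein-like ECs had a Fabp4 UMI (16.4 to 25.9) and 12.0% of B16-F10 ones (8.44 to 16.3), and without thinning 36.0% and 17.3% did. Control cells with 5 or more Fabp4 UMIs numbered 244, of which 163 were in cluster 15, 52 in vein-like, 11 in LEC-like and 7 in gCap-like ECs. In the B16-F10 library they numbered 58, of which 27 were in cluster 15, 26 in vein-like and 2 each in LEC-like and gCap-like ECs. Of the 163 and 27 cells in cluster 15, 99 and 12 also held Rbp7, whereas 0 of the vein-like cells did.

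Rbp7, the retinol binding protein, had 1112 CPM in control cells of cluster 15 (1048 to 1180) and 598 in B16-F10 ones (494 to 716), a log2 ratio of -0.90 (-1.18 to -0.62). There, 1 cell held 48 of the 117 B16-F10 UMIs and 1 cell 145 of the 1096 control UMIs. LEC-like ECs came next, with 27.0 CPM in control (14.4 to 46.2) and 35.3 in B16-F10 (20.6 to 56.6), which were not distinguishable at this depth. The gCap-like ECs held 48 Rbp7 UMIs in control and 2 in B16-F10, or 1.30 CPM (0.959 to 1.72) and 0.0506 CPM (0.00613 to 0.183). This gives a log2 ratio of -4.68 (-7.77 to -2.75), which rests on those 50 UMIs. Free RNA would supply 0.766 CPM in control and 0.127 CPM in B16-F10, so the control level was 1.698 times its supply and the B16-F10 level 0.399 times. Artery-like and vein-like ECs held 0 Rbp7 UMIs in both libraries, for which the Poisson intervals end at 2.19 CPM and 1.18 CPM in control.

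Aqp7, the glycerol channel, was found almost wholly in cluster 15. It had 347 CPM in control cells of cluster 15 (311 to 386) and 235 in B16-F10 ones (172 to 313), a log2 ratio of -0.56 (-1.04 to -0.12). Only 4 control and 2 B16-F10 UMIs fell in gCap-like ECs and 6 and 0 in aCap-like ECs, so no ratio is given for them. Of the 176 control cells of cluster 15, 74 held both Rbp7 and Aqp7, 25 held Rbp7 without Aqp7, 36 held Aqp7 without Rbp7 and 41 held neither. Of the 31 B16-F10 cells, 8 held both and 11 held neither.

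Fabp5, the epidermal-type fatty acid binding protein, differed in direction between vessel classes. In gCap-like ECs it had 7.67 CPM in control (6.80 to 8.62) and 11.6 in B16-F10 (10.5 to 12.7), a log2 ratio of 0.60 (0.38 to 0.81), and these levels were 4.22 and 4.11 times the free RNA supply. Of the 6 gCap-like clusters with at least 50 Fabp5 UMIs over both libraries, 5 were higher in the B16-F10 library, 3 of them beyond counting error. Fabp5 is also a melanoma transcript here: melanoma-like cells had 682 CPM (627 to 741), and in gCap-like ECs the melanoma marker list summed to 1.38 CPM in control and 36.3 CPM in B16-F10. Its part in the Fabp5 difference was not tested.

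In vein-like ECs Fabp5 had 134 CPM in control (121 to 147) and 34.7 CPM in B16-F10 (28.6 to 41.8), a log2 ratio of -1.95 (-2.26 to -1.64). The shares of vein-like cells with a Fabp5 UMI were close, at 8.08% (5.25 to 11.8) and 7.39% (4.64 to 11.1) after thinning, a difference of -0.69 percentage points (-5.12 to 3.79). Without thinning they were 21.9% and 20.1%. Few cells carried much of the control level, since 3 of them held 217 of the 420 UMIs. Without the 3 cells of most Fabp5 UMIs in each library, the log2 ratio was -1.20 (-1.57 to -0.83). In cluster 15 Fabp5 had 1040 CPM in control (978 to 1106) and 1471 in B16-F10 (1306 to 1651), the opposite direction to Fabp4. There, 1 cell held 62 of the 288 B16-F10 UMIs and 1 cell 66 of the 1025 control UMIs. After thinning, 60.0% of control and 65.5% of B16-F10 cells held a UMI, a difference of 5.52 percentage points (-14.0 to 21.9). Without thinning the shares were 75.0% and 64.5%, so the shares of cells show no clear direction.

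Lpl, the lipase, marked gCap-like and artery-like ECs and was low in aerocytes. In the control library it had 1994 CPM in cluster 15 (1906 to 2084), 1170 in gCap-like (1159 to 1181), 710 in artery-like (670 to 751), 98.5 in vein-like (87.8 to 110), 37.4 in LEC-like (22.2 to 59.2) and 31.7 in aCap-like ECs (28.7 to 34.9). The last 2 intervals overlapped. In the B16-F10 library it had 582 CPM in cluster 15 (480 to 700), 796 in gCap-like (787 to 805), 619 in artery-like (580 to 660), 63.8 in vein-like (55.3 to 73.2), 20.8 in LEC-like (9.96 to 38.2) and 32.5 in aCap-like ECs (29.2 to 36.0). Lpl was thus lower after B16-F10 in gCap-like ECs, by a log2 ratio of -0.56 (-0.58 to -0.53), and by -1.78 in cluster 15 (-2.06 to -1.502). The marker content of cluster 15 also differed between the libraries, with gCap list sums of 1637 and 3280 CPM and aCap list sums of 1580 and 955 CPM, and its part in the differences within that cluster was not tested. In aCap-like ECs the log2 ratio was 0.03 (-0.17 to 0.24), which is within counting error.

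The Lpl difference was found in each of the 7 gCap-like clusters, all lower in the B16-F10 library beyond counting error, with log2 ratios from -0.71 to -0.08 and a median of -0.61. The smallest, in cluster 5, had an interval that ended at -0.00067. The share of gCap-like ECs with an Lpl UMI, thinned to 2000 UMIs, was 76.9% in control (75.6 to 78.0) and 68.1% in B16-F10 (66.7 to 69.4), a difference of -8.80 percentage points (-10.6 to -6.99). It was 92.3% and 90.4% without thinning, at medians of 7335 and 8467 UMIs. As background, 5.32% of control and 6.13% of B16-F10 aCap-like ECs held an Lpl UMI after thinning.

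Gpihbp1, which anchors Lpl in the capillary lumen, was also highest in cluster 15 and gCap-like ECs and differed little between the libraries in the latter. It had 1385 CPM in control gCap-like ECs (1373 to 1397) and 1261 in B16-F10 ones (1250 to 1272), a log2 ratio of -0.13 (-0.15 to -0.12). In aCap-like ECs it had 137 and 150 CPM, in artery-like 645 and 625, in vein-like 806 and 622, in LEC-like 148 and 166, and in cluster 15 it had 3569 and 2140 CPM. The vein-like ratio was -0.37 (-0.46 to -0.29) and that of cluster 15 was -0.74 (-0.89 to -0.59). Among the 7 gCap-like clusters the log2 ratio ranged from -0.54 to 0.08, with 4 lower and 1 higher beyond counting error, so no common direction was seen. After thinning, 85.3% of control (84.3 to 86.3) and 84.9% of B16-F10 gCap-like ECs (83.8 to 85.9) held a UMI, a difference of -0.475 percentage points (-1.92 to 0.968). Without thinning the shares were 95.4% and 96.6%. After thinning, 22.4% of control and 29.4% of B16-F10 LEC-like ECs held one, and 19.0% and 22.1% of aCap-like ECs, the lowest vessel class.

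Cd36, the fatty acid receptor, was high in all blood vessel classes. In the control library it had 6905 CPM in cluster 15 (6742 to 7071), 2525 in gCap-like (2509 to 2541), 1956 in aCap-like (1932 to 1980), 1860 in artery-like (1796 to 1927), 1849 in vein-like (1802 to 1897) and 204 in LEC-like ECs (165 to 248). Artery-like and vein-like levels overlapped. In the B16-F10 library the values were 4889 CPM in cluster 15 (4584 to 5209), 2232 in gCap-like (2218 to 2247), 2084 in aCap-like (2057 to 2111), 1850 in artery-like (1782 to 1919), 1462 in vein-like (1421 to 1505) and 181 in LEC-like ECs (145 to 223). The log2 ratio was -0.18 in gCap-like ECs (-0.19 to -0.16), 0.09 in aCap-like (0.07 to 0.12), -0.34 in vein-like (-0.39 to -0.28) and -0.50 in cluster 15 (-0.60 to -0.40).

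Within the 7 gCap-like clusters Cd36 was lower in all, 6 of them beyond counting error, with log2 ratios from -0.36 to -0.05. The unnamed endothelial cluster 13, led by Csf2 and Sox9, held 11 control and 341 B16-F10 cells, so it may reflect 1 library and not a cell type. It had 411 CPM of Cd36 in the B16-F10 library (390 to 433), with 235 CPM of Lpl and 486 CPM of Gpihbp1. After thinning, 98.0% of control (97.5 to 98.4) and 95.7% of B16-F10 gCap-like ECs (95.04 to 96.3) held a Cd36 UMI, a difference of -2.30 percentage points (-3.03 to -1.60). The unthinned shares were 99.7% and 99.6%. In LEC-like ECs the thinned shares were 29.3% and 33.3%.

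Scarb1, the HDL receptor, was higher in the B16-F10 library in 4 vessel classes and in cluster 15. In gCap-like ECs it had 117 CPM in control (113 to 120) and 319 in B16-F10 (314 to 325), a log2 ratio of 1.45 (1.40 to 1.503). It had 120 and 169 CPM in aCap-like ECs (log2 ratio 0.49, 0.39 to 0.59), 36.8 and 87.8 in artery-like (1.25, 0.81 to 1.71), 50.0 and 119 in vein-like (1.24, 0.97 to 1.52) and 261 and 633 in cluster 15 (1.28, 0.96 to 1.59). LEC-like ECs held 7 and 6 UMIs, too few for a ratio. Free RNA of the B16-F10 library also held more, with 170 against 93.3 CPM, but at its estimated share it would supply 5.29 CPM in B16-F10 gCap-like ECs.

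The Scarb1 difference was not confined to 1 gCap-like cluster. Cluster 6, led by Lalba and with Scarb1 among its leading genes, was drawn mostly from 1 library (74 control and 999 B16-F10 cells). It had the highest level of the 7, 317 CPM in control and 669 in B16-F10. The log2 ratio of 1.45 over all gCap-like ECs lay above that of every 1 of the 7 clusters. The part of the unequal cell numbers of cluster 6 in it was not tested. In the other 6 gCap-like clusters the log2 ratio ranged from 0.62 in cluster 3, the cluster with Esm1 among its leading genes, to 1.32 in cluster 8, and all 7 clusters were higher beyond counting error. Without clusters 3 and 6, a choice made after seeing the data, the log2 ratio in gCap-like ECs was 0.96 (0.90 to 1.03). The share of gCap-like ECs with a Scarb1 UMI after thinning was 19.5% in control (18.4 to 20.7) and 39.2% in B16-F10 (37.7 to 40.6), a difference of 19.6 percentage points (17.8 to 21.4). The unthinned shares were 49.5% and 74.7%. In LEC-like ECs, 1.72% and 5.88% of cells held one after thinning.

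**Figure D4:**
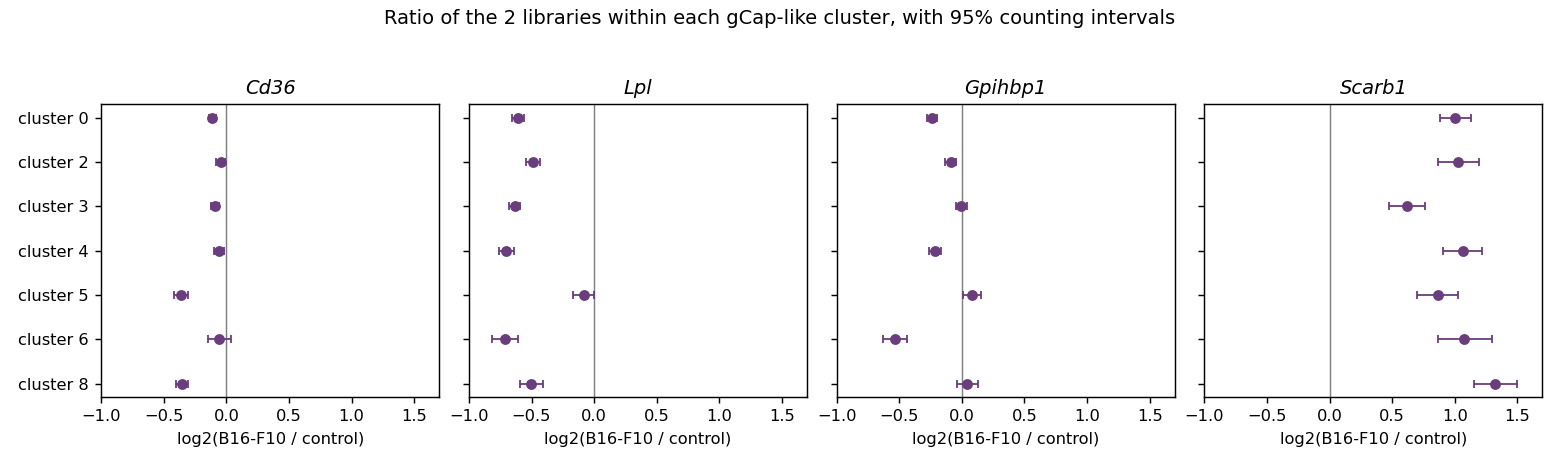
Log2 ratio of B16-F10 over control for Cd36, Lpl, Gpihbp1 and Scarb1 within each of the 7 gCap-like clusters, with 95% counting intervals and a line at 0. Scarb1 is above 0 in all 7, from 0.62 to 1.32, Lpl is below 0 in all 7, and Gpihbp1 lies on both sides of 0.

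The members past 1.5-fold were counted beside all genes. In gCap-like ECs, 2 of the 7 members with at least 50 UMIs over both libraries were more than 1.5-fold higher (Fabp5 and Scarb1), where 7.53% of 13272 genes were, and 2 were more than 1.5-fold lower (Fabp4 and Rbp7), where 9.29% of genes were. Since these ratios had a part in choosing the members, nothing is read from the counts. In aCap-like ECs 1 of 6 members was higher (Fabp5, 23 and 32 UMIs, with an interval that includes 0) and 1 lower (Fabp4, with a control level under the free RNA supply and 122 of its 175 B16-F10 UMIs in 1 cell), against 6.42% and 8.09% of genes. In artery-like ECs 1 of 5 was higher (Scarb1) and 1 lower (Fabp4, 46 and 8 UMIs, near the free RNA supply), against 8.38% and 7.76%. In vein-like ECs 1 of 6 was higher (Scarb1) and 3 lower (Fabp4, Fabp5 and Lpl), against 5.41% and 6.16%. The free RNA share of vein-like ECs was 0.996% in control and 7.07% in B16-F10, where erythroid genes summed to 422 and 2768 CPM, and without haemoglobins it was 1.45% and 2.10%. That share would supply 6.44 of the 98.5 CPM of Lpl in control and 29.0 of the 63.8 CPM in B16-F10, or 9.41 and 8.61 CPM without haemoglobins. For Fabp5 it would supply 0.901 and 6.41 CPM. The part of free RNA in the vein-like ratios was not tested.

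**Figure D5:**
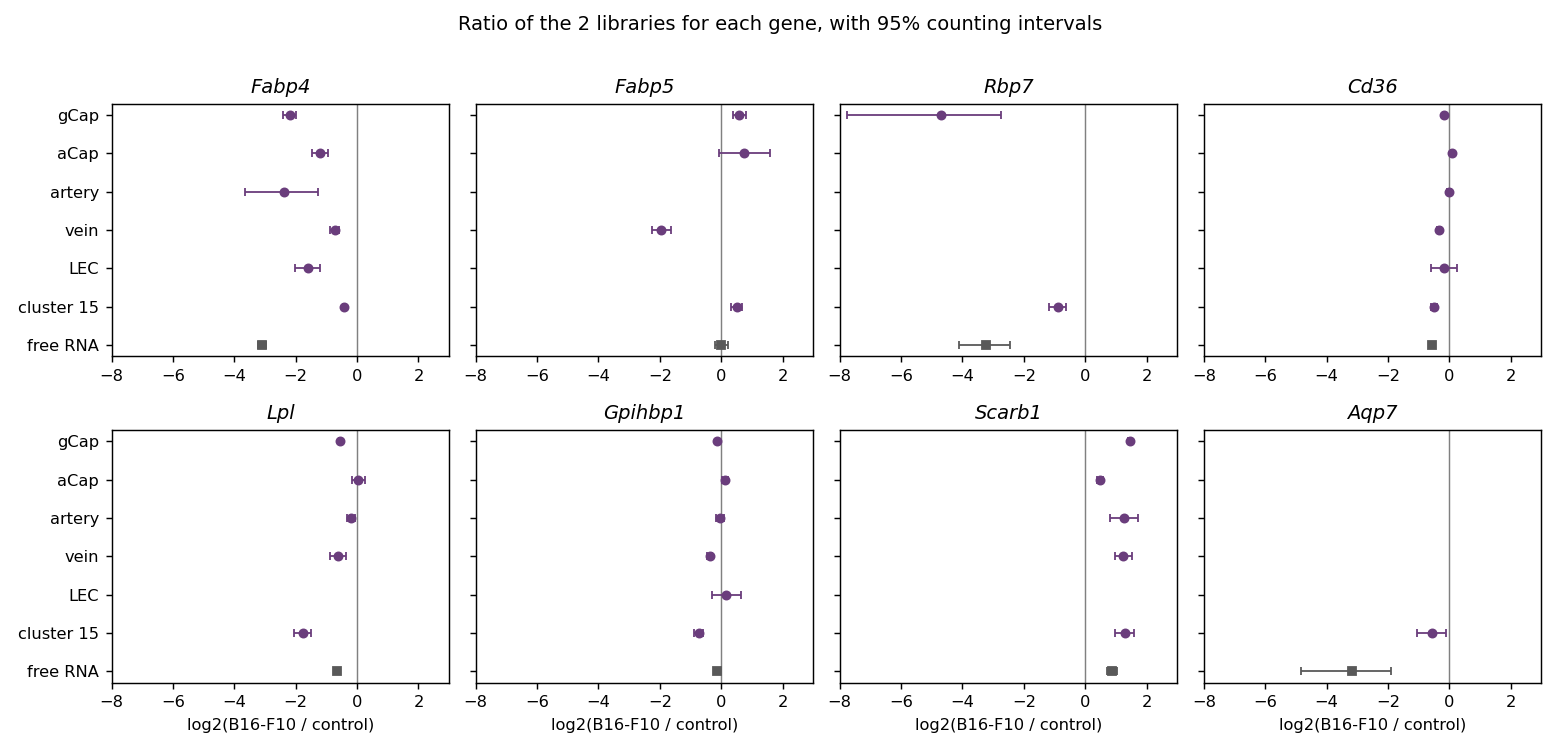
Log2 ratio of B16-F10 over control for each gene with at least 50 UMIs over both libraries in the class, with 95% counting intervals; circles are EC classes and squares are free RNA. Fabp4 is below 0 throughout, at -3.09 in free RNA and -0.43 in cluster 15, and Scarb1 is above 0 in the 5 classes where it could be measured.

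The genes whose levels ran most alike with each member were taken over 26 sums, of an EC cluster in 1 library with at least 50 cells, from 14386 genes. Correlations used the log2 of CPM plus 1. The sums share 2 libraries and their free RNA, and cluster 15 entered with its control cells alone. With Fabp4 these were Meox2 (Pearson r = 0.88), Prickle3 (0.86) and Timp4 (0.85). With Rbp7 they were Ebf3 (0.97), Btnl9 (0.94) and Lmo1 (0.92), and with Aqp7 Gm12002 (0.99), Gm29007 (0.97) and Cfd (0.97). These values rest largely on the control cells of cluster 15, which had 1112 CPM of Rbp7 and 347 CPM of Aqp7. The other sums had at most 35.3 and 2.08 CPM. Gm12002 and Gm29007 were also among the genes of highest fold in cluster 15, so these values are a description. With Fabp5 they were Rflnb (0.86), Snai2 (0.84) and Cers6 (0.82). With Cd36 they were St6galnac2 (0.97), Acyp2 (0.95) and Tmcc3 (0.93), and with Scarb1 Rapgef4os1 (0.85), Il4ra (0.84) and Myo10 (0.84). Lpl ran with Sema3g (0.94), Gpihbp1 (0.94) and Mcf2l (0.93), and Gpihbp1 with Lpl (0.94), Rarres1 (0.93) and Mcf2l (0.92). Lpl and Gpihbp1, the enzyme and its anchor, were the only members to appear among each other's 3.

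The wider lipid pathway was close to all genes in gCap-like ECs. Of 106 genes on 7 lists, 67 had at least 50 UMIs over both libraries, and 6 were more than 1.5-fold higher and 4 lower. Over all 13272 genes measured, 7.53% were higher and 9.29% lower, and these shares also stand beside the counts per list below. The median log2 ratio was -0.06 over the lists and -0.04 over all 13272 genes measured. Of 9 measured genes of fatty acid transport and activation, 1 was higher and 0 lower. That gene, the acyl-CoA synthetase Slc27a3, had 25 and 42 UMIs and an interval that includes 0 (log2 ratio 0.65, -0.10 to 1.42). Cav1, the main coat protein of caveolae, had 1573 CPM in control and 1262 in B16-F10 (-0.32, -0.34 to -0.30). Of 17 fatty acid oxidation genes 1 was higher: Acads, the short-chain acyl-CoA dehydrogenase, had 5.88 and 9.15 CPM (0.64, 0.39 to 0.89).

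Of the 6 measured genes that control lipases, 1 was higher. It was Lipg, endothelial lipase, with 3.06 CPM in control and 4.68 in B16-F10 (0.61, 0.27 to 0.96). Of 10 lipid storage and lipolysis genes, 1 was higher and 1 lower, and both encode inhibitors of the triglyceride lipase Pnpla2. G0s2 had 0.461 and 1.95 CPM (2.08, 1.31 to 2.93). Hilpda, which is induced by hypoxia and lipid, had 744 and 445 CPM (-0.74, -0.77 to -0.71). Of 11 regulators of endothelial lipid uptake, 1 was lower, the coactivator Ppargc1a, with 7.83 and 4.86 CPM (-0.69, -0.96 to -0.42).

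Of 8 measured genes of retinoid handling, 1 was lower. It was Cyp26b1, which breaks down retinoic acid, with 19.9 CPM in control and 10.3 in B16-F10 (-0.94, -1.12 to -0.77). Of 6 genes of water and glycerol channels and glycerol use, the alveolar epithelial channel Aqp5 was higher, with 0.515 and 1.21 CPM (1.24, 0.44 to 2.09), where free RNA would supply 0.202 and 0.589. Aqp11 was lower, with 12.6 and 7.56 CPM (-0.73, -0.95 to -0.52).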

How the data were processed

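Single-cell RNA was measured in 1 library each of sorted lung cells from control and B16-F10-injected mice. The authors deposited raw UMI counts per gene and barcode, with all barcodes listed and no filter applied. File headers name Cell Ranger 7.2.0 and the submitters' notes Seurat 4.4.0 and mm10, while the study's methods differ in the Cell Ranger version and in the number of mice pooled. Whether intron reads were counted is not given in the sources used here. Barcodes had to show 1000 to 5000 genes, with mitochondrial UMIs below 20%. Scrublet (scanpy 1.11.5) marked 564 control and 554 B16-F10 doublets, which were removed. Cells were clustered with leidenalg 0.10.2 at resolution 0.8 on 30 principal components, leaving out the 8 members, the lipid lists and the study's response markers. A class needed at least 3 markers and 40% of its list, each 1.5-fold above the other clusters and in 10% of cells. These thresholds were set after a first clustering was seen. At 50%, with leading genes taken over all other clusters, clusters 3 and 6 would not be gCap-like (747 control and 1757 B16-F10 cells, 15.2% and 38.9% of that class). Cells outside ECs, 9.08% and 18.2%, were left out of vessel classes.

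UMIs were summed per class. Ratios use exact conditional binomial intervals, shares exact Clopper-Pearson intervals and differences of shares Newcombe intervals, all at 95%. A sum of 0 was kept as 0, was given no ratio and is drawn at the level of 3 counts in the figure of levels. Groups of 1 library allow no test, so no p-value is given. Ratio intervals were tested on simulated Poisson counts, the model they assume. That simulation did not cover UMIs clumped in single cells. The members and lists were chosen with earlier results of these data known. Genes named from each list were up to 4 past 1.5-fold with an interval excluding 0, or otherwise the 2 of largest ratio. One result that this rule names is not reported here. For each member the 3 most alike genes were named. Kit, Plvap and the genes of other cell types in cluster 15 were named after their values were seen. Alternatives changed the class, clustering, cell limits, doublets, centring, depth and free RNA.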

Additional observations from a re-analysis of the deposited data

Results flagged for a closer look

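Fabp5 moved in opposite directions in 2 vessel classes beyond counting error, with a log2 ratio of 0.60 in gCap-like and -1.95 in vein-like ECs. The difference between these classes was not tested, and 3 control cells held 217 of the 420 vein-like Fabp5 UMIs.

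Cd36 and Gpihbp1 also differed in direction between the sums of aCap-like and of vein-like ECs. The log2 ratio of Cd36 was 0.0916 in aCap-like and -0.34 in vein-like ECs. That of Gpihbp1 was 0.13 and -0.37. The aCap-like direction was not clear in each aCap-like cluster. For Gpihbp1 the log2 ratio was 0.04 in cluster 1 (-0.06 to 0.14) and 0.31 in cluster 9 (-0.15 to 0.75). Each is within counting error. For Cd36 it was 0.13 in cluster 1 (0.10 to 0.16) and -0.03 in cluster 9 (-0.14 to 0.08). The part of free RNA in the aCap-like ratios was not tested. Neither difference between classes was tested.

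Barcodes with over 100 UMIs and under 300 genes, which no comparison above used, held more Fabp5 and Scarb1 in the B16-F10 library. Fabp5 had 113 CPM there against 57.3 CPM in the control library, and Scarb1 had 140.2 against 70.4 CPM.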

How the results depend on the processing

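Of 114 alternative values for 15 results, 75 stayed within the main value's counting interval or 1.5 times its count, 37 moved beyond it and 2 changed direction. Fabp5, at a log2 ratio of 0.60 in gCap-like ECs, was -1.0 over all ECs and -0.31 over all ECs without cluster 15. These sums include the vein-like cells and, in the first, cluster 15. Over all ECs, Fabp4 was -2.65, Cd36 -0.23, Gpihbp1 -0.16 and Scarb1 1.21. Without cluster 15 they were -1.35 for Fabp4, -1.53 for Rbp7, -0.51 for Lpl, -0.10 for Gpihbp1 and 1.24 for Scarb1. With the stricter naming of gCap-like ECs, Cd36 was -0.12, Lpl -0.61 and Scarb1 0.96. Centred on the median of all genes, Cd36 was -0.14, Lpl -0.52 and Gpihbp1 -0.10. With no doublets removed Cd36 was -0.20. With free RNA subtracted at the share estimated without haemoglobins, Fabp4 was -1.36. At the share with haemoglobins, Fabp4 and Rbp7 gave no value.

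Of the 7 members with at least 50 UMIs in gCap-like ECs, 2 were past 1.5-fold higher and 2 lower, against 7.53% and 9.29% of genes. Those higher were 1 over all ECs, at resolution 1.6, from 500 genes per cell with no upper limit, with no doublets removed and after free RNA subtraction. Those lower were 4 over all ECs, 1 at resolution 1.6, 1 after thinning and 0 after free RNA subtraction. The list genes past 1.5-fold lower were 10 over all ECs and 2 under the stricter naming, and those higher were 1 after thinning. No share over all genes is given for these alternatives, so nothing is read from the counts. Differences in the share of gCap-like ECs with a UMI, without thinning, were -0.158 percentage points for Cd36, -1.87 for Lpl, 1.23 for Gpihbp1 and 25.3 for Scarb1. Thinned to 4000 UMIs they were -0.423 for Cd36, -6.59 for Lpl and 22.9 for Scarb1, and with no doublets removed -10.9 for Lpl. The cause of these shifts was not tested. The stricter naming, the sums without cluster 15 and the free RNA share without haemoglobins were chosen after seeing the data. No paired analysis was possible because neither group has a replicate, and so none could be left out.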

Other observations

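A few genes of the lipid lists were more than 1.5-fold higher in aCap-like ECs of the B16-F10 library. They were 2 of 9 measured lipid storage and lipolysis genes, 1 of 15 fatty acid oxidation genes and 1 of 5 retinoid handling genes. Over all 11102 genes measured in that class, 6.42% were higher, and nothing is read from the counts. Lipe, the hormone-sensitive lipase, had 33.2 CPM in control and 53.4 in B16-F10 (log2 ratio 0.69, 0.50 to 0.87), and Plin3, a lipid droplet coat protein, had 5.04 and 8.18 CPM (0.70, 0.22 to 1.18). Acads had 4.89 and 8.55 CPM (0.81, 0.33 to 1.29). These are all the aCap-like genes of the lists past 1.5-fold with an interval excluding 0, except Aldh1a1, a retinaldehyde dehydrogenase (0.87, 0.07 to 1.6998). Aldh1a1 had 1.76 and 3.22 CPM, where free RNA would supply 2.02 and 1.11. In vein-like ECs, 5 of 8 retinoid handling genes and 3 of 9 lipid storage and lipolysis genes were more than 1.5-fold lower. On both of these lists 0 were higher. On the other lists, 1 gene of water and glycerol channels was lower and 1 regulator higher. Of 9347 genes measured there, 6.16% were lower and 5.41% higher. The part of free RNA in these counts was not tested.

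Lipid droplet and lipolysis genes were present in cluster 15. Its control cells had 1978 CPM of Mgll, the monoglyceride lipase, against 96.8 CPM in gCap-like ECs. Angptl4, an inhibitor of Lpl, had 213 CPM in cluster 15 and 1.11 CPM in gCap-like ECs. Aqp1, the water channel, had 2490 and 645 CPM. Hilpda had 50.8 CPM in cluster 15, under the 96.4 CPM that free RNA would supply, and 744 CPM in gCap-like ECs. That supply rests on a free RNA share of 15.0% in control cells of cluster 15. Without haemoglobins the share was 2.23%, which would supply less.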
